A study of Mus musculus with 24 samples.

Results

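The spleen RNA of BALB/c mice was examined for transcripts of immunoglobulin variable (V) genes, the germline segments that encode the antigen-binding part of antibody chains. Each of 8 titles, 4 titled CT-26 and 4 titled control, had 1 RNA-seq library and 1 library of rearranged B cell receptor (BCR) chains. CT-26 cells are a colon carcinoma line derived from BALB/c mice. All libraries are labelled as splenocytes of this strain, and the labels describe an injection of CT-26 cells into the right side of mice at 8 weeks of age. The treatment field goes against the titles: the libraries titled CT-26 are marked there as healthy, and those titled control as having received CT-26 cells. The fields divide the libraries alike, so the names used here are those of the titles and no difference is read as tumour against healthy. No label says that the libraries of a set came from separate mice, or that an RNA and a BCR library of equal title and number came from the same spleen.

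The genes were chosen by their summed RNA counts: all genes named Ighv, Igkv or Iglv with at least 20 counts over the 8 RNA libraries. Of 348 such genes in the tables, 5 met this limit. They are the heavy chain genes Ighv2-9, Ighv10-1 and Ighv4-2 and the lambda light chain genes Iglv1 and Iglv3. No kappa V gene met it. Because the counts of both sets entered the sum, a gene could be chosen through 1 set alone. Iglv3 had 5 counts in the titled CT-26 set and 28 in the titled control set, and Ighv10-1 had 15 in titled CT-26 and 30 in titled control, so these 2 genes met the limit through their titled control counts, and lower titled CT-26 levels of these 2 are in part fixed by the choice. Just inside the limit were Ighv4-2 with 22 counts and Iglv3 with 33, and just outside were Igkv2-109 with 18 and Igkv10-96 with 15.

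A V gene consists of a leader exon and a V exon. In a developing B cell 1 V segment is joined to a J segment, with a D segment between them in the heavy chain, and the joint forms the hypervariable loop called CDR3. The rearranged exon is then spliced to a constant region, which in heavy chains sets the class: IgM and IgD on naive B cells, and IgG, IgA or IgE after class switching. Light chains are of kappa or lambda type, kappa being the more common in mice. Lambda has few V genes in the mouse, and Iglv1 and Iglv2 are close copies. Mouse heavy V genes fall into groups by sequence; Ighv2 is the Q52 group, Ighv4 the X24 group and Ighv10 the DNA4 group.

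The last 90 bases of each germline gene are shown because they carry the part that enters the CDR3 and differ among the 5 genes. They are GENCODE M21 transcripts on the GRCm38 build of the C57BL/6 reference genome, 5′ to 3′, with capitals from the conserved cysteine codon at which the CDR3 starts.
Ighv2-9: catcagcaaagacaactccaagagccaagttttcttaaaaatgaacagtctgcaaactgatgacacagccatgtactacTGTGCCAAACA
Ighv10-1: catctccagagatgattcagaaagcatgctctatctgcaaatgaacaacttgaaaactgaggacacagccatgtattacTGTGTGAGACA
Ighv4-2: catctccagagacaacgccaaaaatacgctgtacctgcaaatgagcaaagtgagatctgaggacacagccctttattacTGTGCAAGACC
Iglv1: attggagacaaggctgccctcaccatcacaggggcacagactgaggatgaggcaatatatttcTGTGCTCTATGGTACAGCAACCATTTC
Iglv3: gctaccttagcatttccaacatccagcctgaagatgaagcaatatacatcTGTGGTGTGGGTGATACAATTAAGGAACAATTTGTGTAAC

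Per the deposited gene models (GRCm39), each gene has 2 exons on the minus strand, the 3 heavy chain genes on chromosome 12 and the lambda genes on chromosome 16. Ighv2-9 (ENSMUSG00000096638) lies at 113842716 to 113843161, Ighv4-2 (ENSMUSG00000103271) at 113976764 to 113977226 and Ighv10-1 (ENSMUSG00000095981) at 114442625 to 114443071. Iglv1 (ENSMUSG00000076934) lies at 18903767 to 18904250 and Iglv3 (ENSMUSG00000076939) at 19059957 to 19060440. No other gene model overlapped them except for 2010309G21Rik, which spans Iglv1 on the opposite strand and shares 0 exon bases with it. Iglv3 stood alone in sequence, 100% of its stretches of 50 bases occurring in no other V gene. The other 4 have close relatives, Ighv10-1 being 96.7% identical to Ighv10-3, Ighv4-2 96.4% to Ighv4-1, Ighv2-9 94.6% to Ighv2-6-8 and Iglv1 96.7% to Iglv2. Between 65.2% and 79.2% of their 50-base stretches were unique among V genes, against a median of 84.3% over 346 V genes. Per the file headers, read pairs that align to several places were not counted, so the levels of these 4 genes are uncertain to that extent. Ighv4-2 is annotated as a pseudogene, with 1 in-frame stop codon in the C57BL/6 sequence. Of the in-frame BCR reads given to it, 99.7% were called as allele *02. Entries out of frame were left out beforehand, so the in-frame CDR3s of these reads were fixed by that choice.

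The RNA libraries were shallow for single V genes. They held between 735298 and 1152550 counts in the titled CT-26 set and between 907109 and 1970950 in the titled control set, and mitochondrially encoded genes made up 32.0% to 41.1% in titled CT-26 and 46.2% to 66.1% in titled control. The BCR libraries held between 700385 and 803054 in-frame reads in the titled CT-26 set and between 813958 and 857840 in the titled control set. The libraries of a set shared clonotypes (same V, J and CDR3 nucleotides) to different degrees. In the titled CT-26 set, between 4.95% and 31.3% of the heavy chain reads of a library belonged to clonotypes that also occurred in a given other library of that set. In the titled control set it was between 45.2% and 52.9%, and across the sets between 2.89% and 11.9%. Libraries of a set differed by more than counting noise in every pair. The chi-square per degree of freedom was at least 12.3 over heavy chain clonotypes and at least 3.70 over RNA genes. This measure was set against counting noise alone, so it cannot tell separate mice from repeated libraries of the same spleen. Whether libraries of a set share an animal is not stated, so every p given here measures only the spread between these libraries.

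V gene transcripts were scarce in the RNA tables, and a handful of genes held much of them. Of the 348 V genes, 252 (72.4%) had 0 counts in all 8 libraries, and the 96 with a count summed to 629. The 5 genes held 297 of these, 47.2%. For the heavy chain 277 counts fell on 40 of 185 genes, for kappa 212 counts fell on 53 of 160 genes, and for lambda 140 counts fell on all 3 genes, Iglv2 having 7. The constant regions were counted far more often. Igkc, the kappa constant region, had 270313 counts, so there were 0.784 Igkv counts per 1000 constant region counts. The same ratio was 5.21 for the heavy chain and 17.8 for lambda. Per kilobase of gene model, summed constant region CPM exceeded summed V gene CPM by 873-fold for kappa, 46.2-fold for lambda and 36.4-fold for the heavy chain.

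Iglv1 transcripts were less abundant in titled CT-26, along with those of the lambda constant regions. Levels are given as counts and as CPM, counts per 1000000 of library totals adjusted by edgeR's TMM method. Iglv1, with the most counts of the 5, had 5, 12, 2 and 6 counts in titled CT-26 1 to 4 and 11, 35, 18 and 11 in titled control 1 to 4. This was 5.47 ± 3.06 CPM in the titled CT-26 set and 15.0 ± 7.92 CPM in the titled control set (SD, n = 4 each). The sets overlapped, since titled CT-26 2 lay above titled control 4 in CPM. The log2 fold change was -1.41 ± 0.45 (SE), with an adjusted p of 0.0118 by edgeR's quasi-likelihood test over 18766 genes.

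Iglv3, a lambda V gene unlike the other lambda V genes in sequence, had 2, 0, 2 and 1 counts in titled CT-26 1 to 4 and 3, 6, 8 and 11 in titled control 1 to 4. Its level was 1.17 ± 0.850 CPM in the titled CT-26 set and 5.41 ± 2.23 CPM in the titled control set (SD, n = 4 each), with no overlap. The 0 counts of titled CT-26 2 allow a level of up to 2.25 CPM. The fitted log2 fold change was -2.16 ± 0.79 (SE; edgeR adjusted p = 0.0388). Since Iglv3 met the count limit through titled control alone, these values are a description and the p carries no weight as a test. Of the 5 genes 2, Iglv1 and Iglv3, had an adjusted p under 0.05, where 18.0% of all genes with a count were called in either direction. Many of those genes have fewer counts than the 5. In a fit limited to 6408 better counted genes, which kept 0 of the 5, 42.8% were called. Neither stayed under 0.05 by library totals without TMM (edgeR adjusted p = 0.0952 for Iglv1 and 0.105 for Iglv3), with the sequencing lane in the model (0.284 for Iglv1 and 0.0809 for Iglv3) or with DESeq2 (0.0559 for Iglv1 and 0.0694 for Iglv3). Leaving out single libraries raised the adjusted p of Iglv1 above 0.05 without titled CT-26 3 (0.0863) or titled control 2 (0.173), and that of Iglv3 without titled CT-26 2 (0.186) or 4 (0.0709) or titled control 3 (0.126) or 4 (0.098).

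The 3 heavy chain genes did not pass the test. Ighv2-9, of the Q52 group, had 22, 5, 2 and 14 counts in titled CT-26 1 to 4 and 11, 12, 15 and 16 in titled control 1 to 4. It had 10.2 ± 8.76 CPM in the titled CT-26 set and 11.0 ± 3.0 CPM in the titled control set (SD, n = 4 each). In CPM, titled CT-26 1 and 4 were above all titled control libraries and titled CT-26 2 and 3 below them. Its log2 fold change of -0.12 ± 0.43 (SE; edgeR adjusted p = 0.873) became 0.19 by library totals without TMM.

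Ighv10-1, of the DNA4 group, had 1, 4, 5 and 5 counts in titled CT-26 1 to 4 and 6, 8, 5 and 11 in titled control 1 to 4. It had 3.48 ± 2.0 CPM in the titled CT-26 set and 5.76 ± 0.577 CPM in the titled control set (SD, n = 4 each), overlapping through titled CT-26 4. The log2 fold change was -0.75 ± 0.62 (SE; edgeR adjusted p = 0.456). Ighv4-2, of the X24 group, had 8, 0, 0 and 6 counts in titled CT-26 1 to 4 and 4, 0, 2 and 2 in titled control 1 to 4. Its counts in the titled CT-26 set thus came from libraries 1 and 4 alone. The libraries at 0 counts allow a level of up to 2.25 CPM in titled CT-26 2, 2.71 in titled CT-26 3 and 2.09 in titled control 2. It had 3.44 ± 3.99 CPM in the titled CT-26 set and 1.81 ± 1.72 CPM in the titled control set (SD, n = 4 each). Its fitted log2 fold change was 0.96 ± 0.85 (SE; edgeR adjusted p = 0.463), and ranged from 0.23 without titled CT-26 1 to 1.66 without titled control 1. The median of the 5 log2 fold changes was -0.75, where that over all genes was -0.24 and that over the 96 V genes with a count -1.39. Many of the 96 had only 1 or 2 counts, so their fold changes depend mainly on which set held those counts. Without TMM the median over all genes was 0.05, and 2108 genes were called higher and 943 lower in titled CT-26, against 1664 higher and 1720 lower with it. Of the 96 V genes, 2 were called, both lower and both among the 5, and 4 had an unadjusted p under 0.05.

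Divided by the length of the gene model and averaged over the sets, the level was 29.2 CPM per kilobase for Ighv2-9, 26.2 for Iglv1, 12.9 for Ighv10-1, 8.64 for Iglv3 and 7.25 for Ighv4-2. The order was not the same in both sets. Ighv2-9 was above Iglv1, and Ighv4-2 above Iglv3, in titled CT-26, while Iglv1 was above Ighv2-9 and Iglv3 above Ighv4-2 in titled control.

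**Figure D1:**
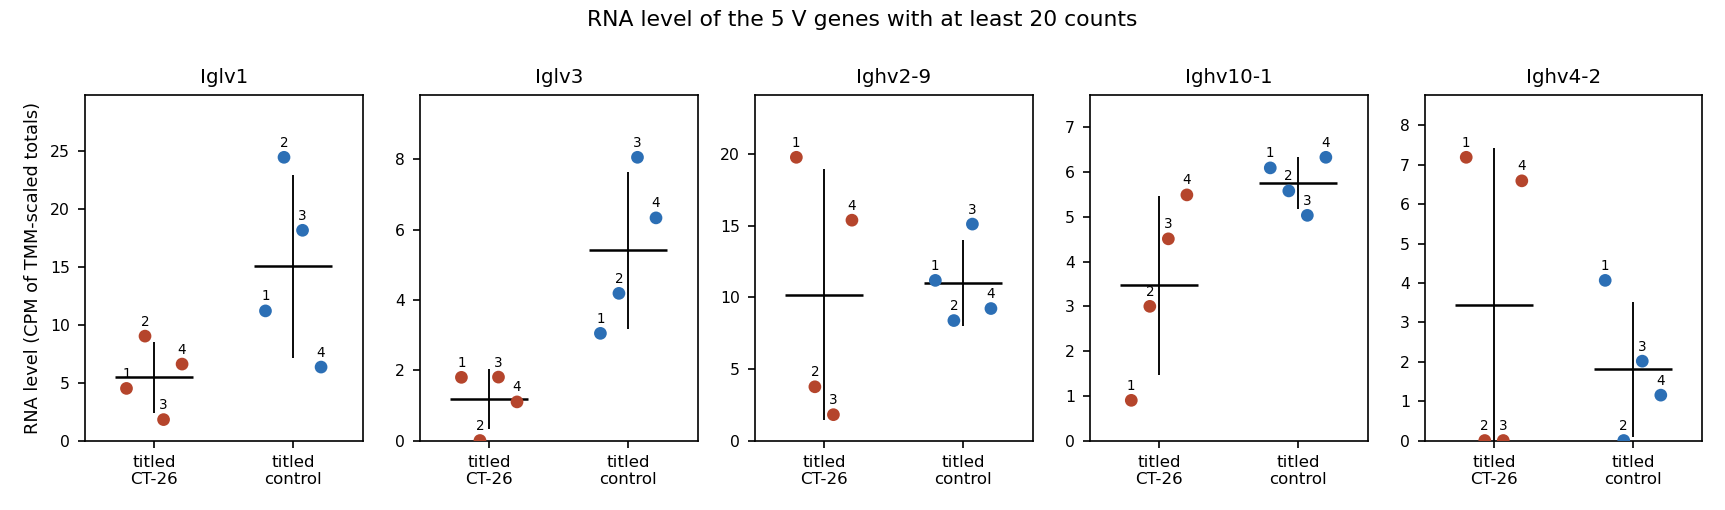
RNA level in CPM of TMM-scaled totals for each of the 5 V genes, 1 point per library with its number, titled CT-26 left of titled control; the horizontal line is the mean and the vertical line 1 SD (n = 4), drawn down to 0 at most. Iglv3 shows no overlap between the sets, at 0 to 1.80 CPM in titled CT-26 and 3.05 to 8.06 CPM in titled control, while the other 4 genes overlap.

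Markers of B cells were lower in titled CT-26 as well. Of 12 B cell markers tested, 11 fell in the titled CT-26 libraries, with a median log2 fold change of -2.15, in a fit of 6408 genes of which 42.8% were called. Their summed level lay between 387 and 771 CPM in titled CT-26 and between 2076 and 3211 CPM in titled control, and none was at 0. Ms4a1, which encodes CD20, lay between 24.5 and 53.1 CPM in titled CT-26 and between 471 and 647 CPM in titled control. Among plasma cell markers 5 of 12 were tested and 3 fell, Jchain, the joining chain of secreted IgM and IgA, having a log2 fold change of -0.54 (edgeR adjusted p = 0.0379). The lambda constant regions Iglc1, Iglc2 and Iglc3 had log2 fold changes of -0.65, -1.78 and -1.74, while Igkc had -0.48 (edgeR adjusted p = 0.161) and Ighm 0.08 (0.817). Of 12 constant region genes listed, 11 were tested, 5 fell and 3 rose. Those that rose were Ighg1 with 3.17 (edgeR adjusted p = 2.03e-08), Ighe with 4.87 (2.0e-07) and Ighg3 with 1.26 (0.011). Rag1 and Rag2, which carry out V gene joining, had 0 counts in all libraries. Other cell types moved too: 8 of 8 T cell markers and 4 of 5 red pulp macrophage markers fell, while 7 of 8 neutrophil markers and 7 of 8 erythroid markers rose. The summed neutrophil markers lay between 3675 and 8816 CPM in titled CT-26 and between 495 and 1605 CPM in titled control. The part of these cell types in the V gene levels was not tested. In bulk RNA fewer B cells and less RNA per cell cannot be told apart.

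Summed over all V genes of a chain, lambda levels were lower in every titled CT-26 library than in any titled control library, while kappa and heavy chain levels overlapped. Iglv counts amounted to 6.87 ± 2.31 CPM in titled CT-26 and 21.6 ± 7.29 CPM in titled control (SD, n = 4 each). Igkv counts amounted to 14.2 ± 4.71 CPM in titled CT-26 and 28.4 ± 8.07 CPM in titled control. The Ighv sum was 26.4 ± 14.1 CPM in titled CT-26 and 31.8 ± 8.44 CPM in titled control, and its order turned round without TMM, with means of 30.3 CPM in titled CT-26 and 28.6 CPM in titled control. Set against their own constant regions, the lambda V genes had 15.3 ± 3.85 counts per 1000 Iglc counts in titled CT-26 and 18.5 ± 5.79 in titled control, ranges that overlapped. No test was made on these sums.

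Expressed as a share of the V counts of its class (heavy, or kappa with lambda), 0 of the 5 genes differed by edgeR's quasi-likelihood test, and 0 had an unadjusted p under 0.05, in a fit that called 18.0% of all 18766 genes. Iglv1 made up 26.9% of the light chain V counts in titled CT-26 and 28.96% in titled control, a log2 fold change of -0.13 ± 0.45 (SE). Iglv3 made up 5.38% in titled CT-26 and 10.8% in titled control (-0.99 ± 0.83, SE). Ighv2-9 was the largest heavy chain contributor in both sets, at 38.4% of Ighv counts in titled CT-26 and 32.7% in titled control (0.08 ± 0.43, SE). Ighv10-1 had 13.4% in titled CT-26 and 18.2% in titled control, and Ighv4-2 had 12.5% in titled CT-26 and 4.85% in titled control. These intervals are wide: at 16 to 70 heavy chain V counts per library, a gene with 0 counts could still hold up to between 4.29% and 18.8% of the class.

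The BCR libraries measured V usage at far greater depth and were not used to choose the genes. IGLV3 and IGHV10-1 are the segments of the 2 genes that met the RNA limit through titled control. Whether RNA and BCR libraries share spleens is not stated. If they do, that choice could also favour higher titled control BCR shares, so the BCR p-values of these 2 may not be free of it. Shares are in-frame reads of a V segment over all in-frame reads of its class, heavy or light. IGLV3 reads were rare, at 0.0807%, 0.0486%, 0.0435% and 0.0395% of light chain reads in titled CT-26 1 to 4 and 0.130%, 0.117%, 0.153% and 0.117% in titled control 1 to 4. Every titled CT-26 library was below every titled control library. The log2 fold change was -1.28 ± 0.32 (SE), with an edgeR adjusted p of 0.0223 over 296 segments. The smallest share rests on 173 reads and has an exact 95% binomial (Clopper-Pearson) interval of 0.0339% to 0.0459%; such intervals and the limits for 0 counts cover counting error only.

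IGHV10-1 showed the same arrangement. It took 0.301%, 0.262%, 0.360% and 0.429% of heavy chain reads in titled CT-26 1 to 4 and 0.718%, 0.663%, 0.995% and 0.572% in titled control 1 to 4, without overlap. The fold change on the log2 scale was -1.12 ± 0.28 (SE; edgeR adjusted p = 0.0234). So 2 of the 5 segments fell, and 22.0% of all 296 segments were called, 59 lower and 6 higher. The median of the 5 log2 fold changes was -0.98. Most segments had a negative value, with a median log2 fold change of -0.88 over 176 heavy chain segments and -0.46 over 120 light chain segments. Leaving out single libraries ended the call of IGHV10-1 without titled CT-26 1 (0.05005) or 2 (0.0687), and that of IGLV3 without titled CT-26 2 (0.0647), 3 (0.0533) or 4 (0.0511). IGHV4-1, the most used heavy chain segment, was among the 6 higher ones, at 36.8% ± 5.98 of heavy chain reads in titled CT-26 and 23.6% ± 2.90 in titled control (SD, n = 4 each). With DESeq2's size factors, which moved the median of all segments to 0.09, 27 segments were called higher and 27 lower. IGHV10-1 then had -0.12 (adjusted p = 0.823) and IGLV3 -0.78 (0.0536), and 0 of the 5 segments were called, 2 having an unadjusted p under 0.05.

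IGLV1, the most used light chain segment of all 136, took 18.01%, 16.9%, 15.2% and 20.4% of light chain reads in titled CT-26 1 to 4 and 18.1%, 17.9%, 12.3% and 14.8% in titled control 1 to 4. The sets overlapped (log2 fold change 0.16 ± 0.16, SE; edgeR adjusted p = 0.495). IGHV2-9 took 0.105%, 0.124%, 0.0692% and 0.0507% of heavy chain reads in titled CT-26 1 to 4 and 0.0906%, 0.0882%, 0.375% and 0.133% in titled control 1 to 4. Titled control 3 was the highest by far, and the log2 fold change of -0.98 ± 0.53 (SE; edgeR adjusted p = 0.197) was -0.25 without it. IGHV4-2, second among 220 heavy chain segments, took 3.98%, 5.80%, 3.16% and 16.5% in titled CT-26 1 to 4 and 11.0%, 11.4%, 6.29% and 11.8% in titled control 1 to 4. Titled CT-26 4 was above every other library. The log2 fold change of -0.46 ± 0.50 (SE; edgeR adjusted p = 0.522) was -1.23 (0.0282) without that library, and 0.38 when clonotypes were counted in place of reads.

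**Figure D2:**
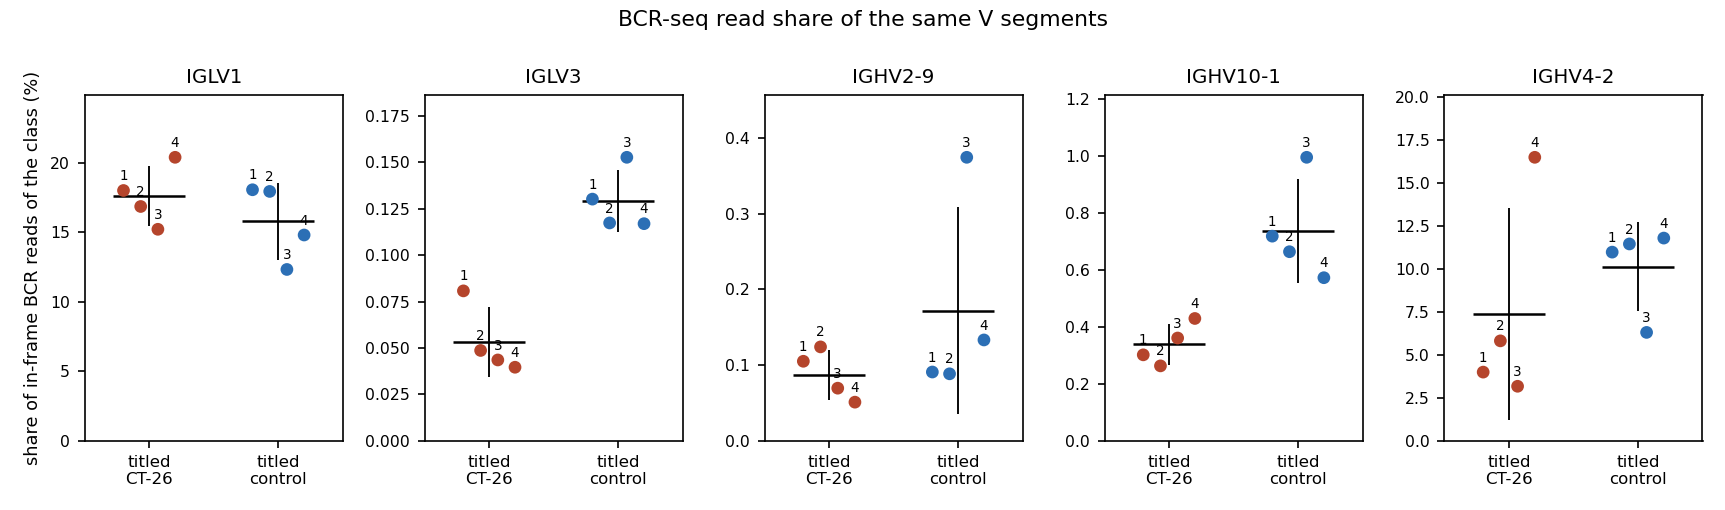
Share of in-frame BCR reads of the class, in percent, for the segments of the same 5 genes, 1 point per library with its number, titled CT-26 left of titled control; lines give the mean and 1 SD (n = 4). IGLV3 and IGHV10-1 do not overlap between the sets, and IGHV4-2 reaches 16.5% in titled CT-26 4.

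**Figure D3:**
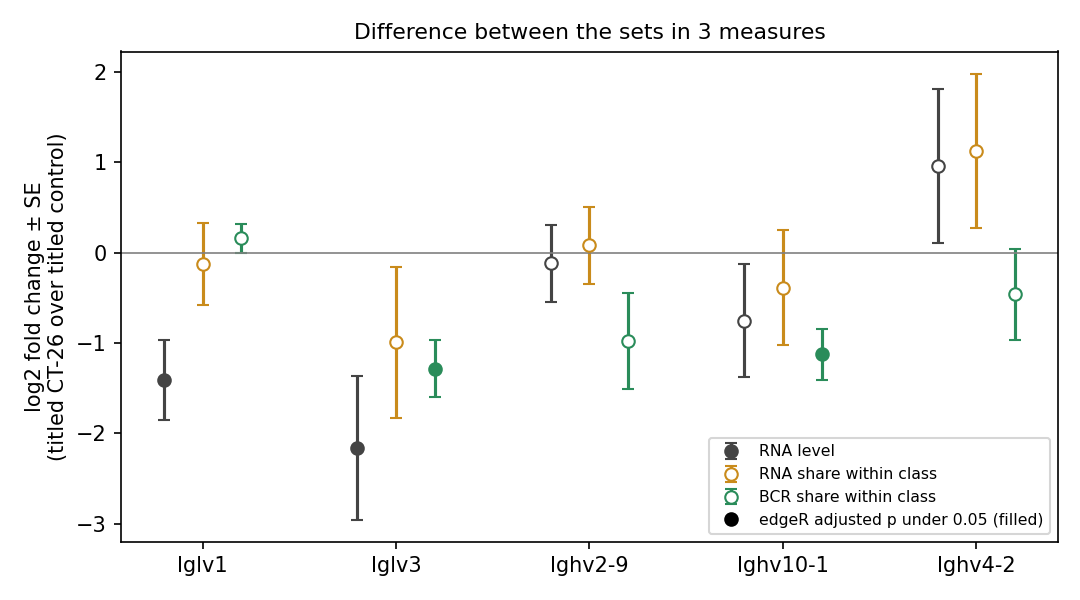
Log2 fold change, titled CT-26 over titled control, with its SE for the RNA level, the RNA share within the class and the BCR share within the class; filled points have an edgeR adjusted p under 0.05. The RNA level is filled for Iglv1 and for Iglv3, whose choice through titled control makes its value a description, the BCR share for Iglv3 and Ighv10-1, and the RNA share for none of the 5.

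RNA shares and BCR shares of V genes did not follow the same order. The reference genome is that of C57BL/6 while the mice are BALB/c, and the part of strain differences in these gaps was not tested. Segments without a gene of that name in the RNA tables held 25.6% of heavy chain BCR reads and 0.112% of light chain BCR reads. The 5 genes were chosen for a high RNA count, which in part fixes the side on which they fall. Their RNA share over the 8 libraries exceeded their mean BCR share by 271-fold for Ighv2-9 and 103-fold for Iglv3, and by 30.2-fold for Ighv10-1. Ighv2-9 held 35.0% of heavy chain V counts (97 of 277, exact 95% binomial interval 29.4% to 41.0%), while its BCR share averaged 0.129%, rank 54 of 220. The shares were closer for Iglv1, with 28.4% of RNA and 16.7% of BCR, and for Ighv4-2, with 7.94% of RNA and 8.74% of BCR. The reverse held for other segments. IGHV4-1 averaged 30.2% of heavy chain BCR reads and had 1 RNA count, IGKV8-30 averaged 11.98% of light chain reads and had 1 RNA count, and IGLV2 averaged 10.4% and had 7 RNA counts. The 10 most used heavy chain segments made up 72.2% of the BCR reads, and 6 of them that had a gene of that name in the RNA tables summed to 29 RNA counts of 277. The 10 most used light chain segments made up 66.3% of reads and 131 RNA counts of 352, of which 100 were those of Iglv1.

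Within a library, Spearman's rho of log2 RNA share and log2 BCR share across the 5 genes lay between -0.41 and 0.60, with a median of 0 over the 8 libraries of equal title and number. Across all 93 V genes with a count and a BCR segment of the same name it lay between -0.15 and 0.30, median -0.06. Pooled over libraries it was 0.08 across 39 heavy chain genes and 0.02 across 54 light chain genes. These values are across genes, which are not independent replicates, and most of the 93 genes rest on a few counts. Of the 93 genes, 15 had an RNA share within 2-fold of the BCR share and 9 exceeded it by more than 100-fold. In 2 of 8 cases the deviation of an RNA library from its set mean, across the 5 genes, correlated best with the BCR library of its own number.

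**Figure D4:**
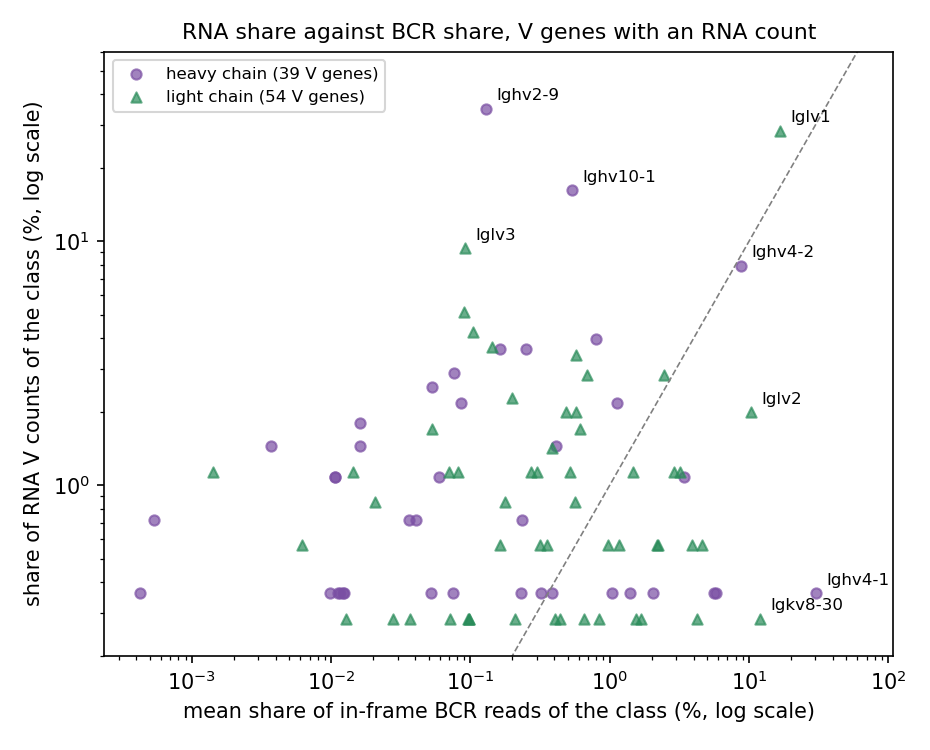
Share of RNA V counts of the class, 8 libraries summed, against the mean share of in-frame BCR reads of the class, both in percent on log scales, for 39 heavy chain and 54 light chain V genes with an RNA count; the dashed line marks equal shares. Ighv2-9 and Iglv3 stand far above the line, Ighv4-1 and Igkv8-30 far below it, and Ighv4-2 lies close to it at 7.94% and 8.74%.

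The BCR reads show which rearrangements the 5 segments took part in. Most IGLV3 reads belonged to the same rearrangement in every library. IGLV1 had 4191 to 5461 clonotypes per library, and its 3 leading CDR3s held 47.8% to 63.5% of its reads. The most read CDR3s are shown 5′ to 3′, with capitals for the leading bases that match the germline V gene from the cysteine codon on and lower case for the rest.
Iglv3, joined to IGLJ2: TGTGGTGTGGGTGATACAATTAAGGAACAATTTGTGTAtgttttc
Iglv1 first sequence, joined to IGLJ1: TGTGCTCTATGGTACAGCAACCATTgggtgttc
Iglv1 second sequence, joined to IGLJ1: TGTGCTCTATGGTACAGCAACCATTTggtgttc
Ighv4-2, joined to IGHJ2: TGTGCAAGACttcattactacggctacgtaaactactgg
Ighv4-2 first sequence, joined to IGHJ3: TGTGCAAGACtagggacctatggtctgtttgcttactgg
Ighv4-2 second sequence, joined to IGHJ3: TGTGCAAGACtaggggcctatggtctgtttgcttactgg
Ighv4-2 in titled CT-26 4, joined to IGHJ2: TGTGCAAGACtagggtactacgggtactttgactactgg

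The first of these made up 78.6% ± 2.76 of IGLV3 reads in titled CT-26 and 77.3% ± 1.24 in titled control (SD, n = 4 each), and it was the largest IGLV3 clonotype in all 8 libraries. It codes for 15 residues, and the 38 bases that match the germline V gene and the 9 at its end that match IGLJ2 cover all 45. IGLJ2 was joined to 99.7% of IGLV3 reads. The 2 IGLV1 sequences differ at 1 base. The first made up 25.6% ± 1.47 of IGLV1 reads in titled CT-26 and 31.8% ± 0.546 in titled control, and the second 16.2% ± 5.12 in titled CT-26 and 17.6% ± 0.536 in titled control (SD, n = 4 each). In both, the bases matching the V gene and those matching IGLJ1 covered the whole CDR3. IGLV1 is known to join IGLJ1 or IGLJ3. IGLJ3 took 14.4%, 16.6%, 17.5% and 28.9% of IGLV1 reads in titled CT-26 1 to 4 and 8.16%, 8.44%, 9.94% and 8.03% in titled control 1 to 4, without overlap.

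The 3 leading IGHV4-2 CDR3s belonged to the titled control libraries. None had more than 2 reads in any titled CT-26 library, and together they made up 47.2%, 48.1%, 42.9% and 48.6% of IGHV4-2 reads in titled control 1 to 4. The 2 that were joined to IGHJ3 differ at 1 base. The last sequence shown was the largest IGHV4-2 clonotype of titled CT-26 4, with 6369 of its 48106 IGHV4-2 reads, and had at most 2 reads in each of the other libraries. In the titled CT-26 set each library had a different largest IGHV4-2 clonotype. Reads of IGHV4-2 clonotypes seen in a given other library of the set made up 2.36% to 48.9% in titled CT-26 and 86.8% to 89.7% in titled control. Across the sets this share was 0.462% to 37.8%, highest for titled control 1 reads of clonotypes seen in titled CT-26 4. A clonotype counts as shared even where the other library has 1 read of it. The largest clonotype made up 14.1% ± 4.18 of IGHV4-2 reads in titled CT-26 and 21.0% ± 1.40 in titled control, and that of IGLV1 made up the shares given above. The sets did not overlap in either segment, yet the adjusted p was 0.106 for both (exact permutation test over the 70 assignments, two-sided, smallest possible p 0.0286). None of the 5 segments passed, and 0% of all 122 segments tested did. A segment could pass only if many others also reached the smallest possible p, so the lack of calls is no sign of equal shares.

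IgD was scarce among the reads of the 3 heavy chain segments in the titled CT-26 set, as it was among those of nearly all segments. Among IGHV4-2 reads with a constant region call, IgD made up 0.0712%, 0.0722%, 0.0357% and 0.0768% in titled CT-26 1 to 4 and 0.789%, 0.757%, 2.08% and 1.02% in titled control 1 to 4. For IGHV10-1 it was 0.209% ± 0.365 in titled CT-26 and 2.71% ± 0.273 in titled control, and for IGHV2-9 0.222% ± 0.278 in titled CT-26 and 7.69% ± 3.23 in titled control (SD, n = 4 each). A library with 0 IgD reads allows up to 1.04% and 2.08% for IGHV2-9 in titled CT-26 1 and 4, and up to 0.357% and 0.439% for IGHV10-1 in titled CT-26 1 and 2. All 3 fell without overlap (exact permutation test, two-sided, adjusted p = 0.0303 over 54 segments), where 94.4% of the segments were called. Over all heavy chain reads IgD made up 0.294% ± 0.0391 in titled CT-26 and 5.44% ± 0.582 in titled control. In titled control IGHV4-2 ranked 53 of 54 segments in IgD share, IGHV10-1 47 and IGHV2-9 23. Ighd itself had an RNA log2 fold change of -3.94 (edgeR adjusted p = 4.74e-12).

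Class-switched reads of the 3 segments did not pass the test, and 0% of all 54 segments did. With a smallest possible p of 0.0286, a segment could pass after adjustment only if many others also reached that p. The lack of calls is therefore no sign of equal switching. Over all heavy chain reads, class-switched reads made up 37.99% ± 5.58 in titled CT-26 and 20.3% ± 1.21 in titled control (SD, n = 4 each), without overlap. The median difference over the 54 segments was 13.2 percentage points, higher in titled CT-26. For IGHV2-9 class-switched reads made up 32.3%, 41.7%, 47.1% and 41.7% of reads in titled CT-26 1 to 4 and 15.9%, 21.4%, 18.6% and 17.0% in titled control 1 to 4, without overlap (exact permutation test, p = 0.0286, adjusted p = 0.0771). For IGHV10-1 the means were 13.9% ± 6.73 in titled CT-26 and 11.5% ± 3.75 in titled control, and for IGHV4-2 32.1% ± 15.8 in titled CT-26 and 24.6% ± 2.26 in titled control (SD, n = 4 each). IgG1 was higher in titled CT-26 without overlap for all 3 segments, a difference that was not tested. It made up 13.2% ± 6.35 of IGHV2-9 reads with a constant region call in titled CT-26 and 2.40% ± 1.40 in titled control. For IGHV10-1 it was 2.63% ± 1.72 in titled CT-26 and 0.317% ± 0.302 in titled control. For IGHV4-2 it was 1.07% ± 0.554 in titled CT-26 and 0.0784% ± 0.0761 in titled control (SD, n = 4 each). IGHV4-2 was joined mainly to constant regions called as IgM, IgG3 and IgG2c. The name IgG2c is that of the deposited call, and whether it is the right one for this strain was not tested. Ighg2c had 4 RNA counts over the 8 libraries. IgG3 made up 10.6%, 4.04%, 3.45% and 32.2% of its reads in titled CT-26 1 to 4 and 11.9%, 9.68%, 15.9% and 13.8% in titled control 1 to 4, so titled CT-26 4 stood above all others in IgG3 as it did in the share of the segment. IgE reads occurred with IGHV10-1 in all 4 titled CT-26 libraries, at 0.146% to 1.43% of reads, while the 0 reads in each of the 4 titled control libraries allow up to 0.189% to 0.258% (exact permutation test, adjusted p = 0.0735). This was not particular to the segment: over all heavy chain reads IgE made up 0.536% ± 0.281 in titled CT-26 and 0.0167% ± 0.0131 in titled control, and 0 of the 54 segments passed. IGHV2-9 had 12.1% IgE reads in titled CT-26 3, 21 of 174, the highest value of the 3 segments in any library.

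**Figure D5:**
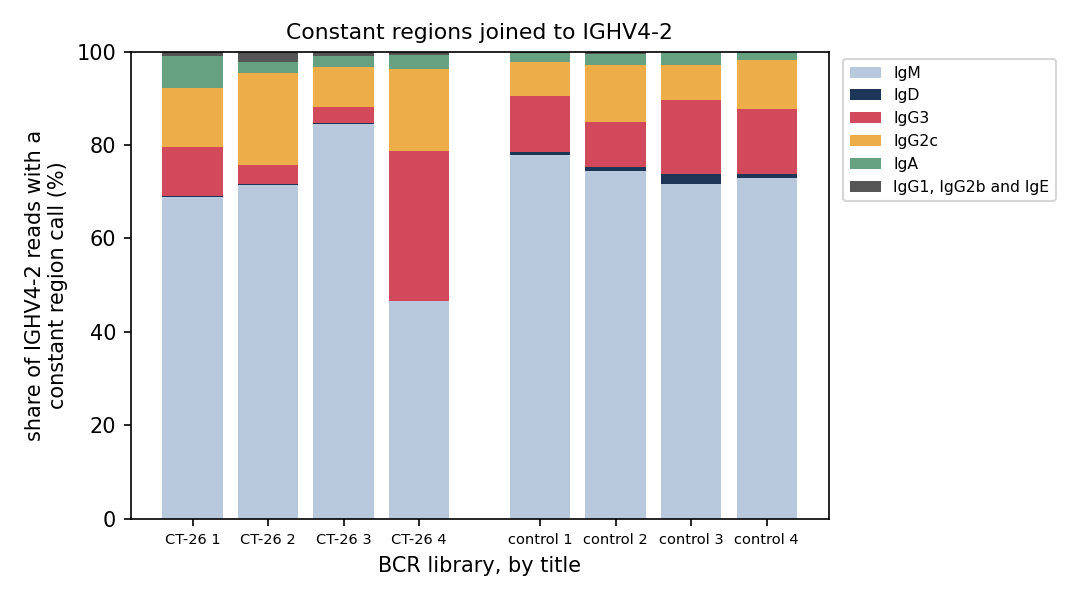
Constant regions, named as in the deposited calls, among IGHV4-2 reads with a constant region call, in percent, stacked to 100 per BCR library, titled CT-26 left of titled control. Titled CT-26 4 has 32.2% IgG3 and 46.5% IgM, and IgD takes at most 0.0768% in titled CT-26 and 0.757% to 2.08% in titled control.

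Among the 5 segments, the mean CDR3 length differed most between the sets for IGHV2-9, by 0.557 residues. The mean length of IGHV4-2 CDR3s over clonotypes was 13.2 ± 0.251 residues in titled CT-26 and 13.2 ± 0.0220 in titled control (SD, n = 4 each), and that of IGLV3 CDR3s was 15.0 ± 0.0693 residues in titled CT-26 and 14.9 ± 0.0223 in titled control. IGHV2-9 had 14.1 ± 0.164 residues in titled CT-26 and 13.6 ± 0.296 in titled control, without overlap (exact permutation test, adjusted p = 0.317). IGLV1 also did not overlap, with 11.02 ± 0.00951 residues in titled CT-26 and 11.05 ± 0.00721 in titled control (0.317). None of the 5 segments passed, and 0% of all 122 segments tested did. With a smallest possible p of 0.0286, a segment could pass only if many others also reached that p. The lack of calls is therefore no sign of equal lengths. The same alleles led in both sets. IGLV1 and IGLV3 were called as *01 in 100% of reads, IGHV2-9 as *02 in 97.8% in titled CT-26 and 90.8% in titled control, and IGHV10-1 as *01 in 83.4% in titled CT-26 and 85.5% in titled control.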

How the data were processed

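RNA-seq was analysed from deposited gene counts and B cell receptor (BCR) usage from deposited clonotype tables with read counts; the T cell receptor libraries were not used. Per the file headers, the authors used featureCounts 2.0.1 and the gene models of GENCODE M29 to count read pairs per gene, ignoring strand and leaving out multi-mapping pairs. Per the submitters' processing notes, STAR 2.7.10a and Trimmomatic 0.39 were used, and both GRCm39 and GRCm38 are listed. The deposited clonotype tables give, per the file headers, a read count and a fraction per clonotype; the fraction was not used and counts were summed per V segment over in-frame entries. RNA levels were tested with edgeR 4.0.16 (quasi-likelihood, robust, TMM) on all 18766 genes with a count. The designed expression filter kept 0 of the 5 genes, so the planned fit without it is reported. Shares within a class used the class total as offset, and p-values were adjusted by Benjamini-Hochberg. Isotype and CDR3 measures used an exact permutation test over samples, on segments with enough reads in every library. DESeq2 1.42.0 was an alternative, as were other scalings, the lane in the deposited file names, a replicate block, clonotypes in place of reads and leaving out each library. The fits were tested on simulated data, where many changed genes at the low counts of V genes were missed and where large changes in BCR shares led unchanged segments to be called above the nominal rate. All 5 genes are named, with the 2 nearest the limit on either side. The genes and lists were chosen with earlier results of these data known. The promoter table used here holds no V genes, so promoter motifs were not analysed here. Samples were grouped by title. Replicate numbers were not treated as pairs: same-numbered libraries correlated at -0.06 to 0.10 in RNA and -0.08 to 0.24 in BCR deviations. Other tools were R 4.3.3, limma 3.58.1, Python 3.11.15, pandas 2.3.3, numpy 2.4.6, scipy 1.17.1, matplotlib 3.10.9 and Biopython 1.88.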

Additional observations from a re-analysis of the deposited data

Results flagged for a closer look

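Within sets of 4 libraries, 7 of 64 sets tested held a value far from the other 3 by Dixon's test, where chance gives about 1 in 20. The IGHV2-9 share of heavy chain BCR reads was 0.375% in titled control 3 and between 0.0882% and 0.133% in the other titled control libraries. The IGHV4-2 share was 6.29% in titled control 3 and between 11.0% and 11.8% in the others. IgD made up 0.754% of IGHV10-1 reads in titled CT-26 3 and between 0 and 0.0831% in the other titled CT-26 libraries. IgD made up 12.5% of IGHV2-9 reads in titled control 1 and between 5.68% and 6.64% in the others. It made up 0.0357% of IGHV4-2 reads in titled CT-26 3 and between 0.0712% and 0.0768% in the others. The mean IGHV4-2 CDR3 was 13.6 residues long in titled CT-26 1 and between 13.05 and 13.1 in the others. The largest IGHV2-9 clonotype made up 5.38% of its reads in titled control 4 and between 3.19% and 3.39% in the others.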

How the results depend on the processing

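Among the 5 genes, the RNA level called 2 and the alternatives called 0 with DESeq2, with the lane and without TMM, 1 with the replicate block (Iglv3 adjusted p = 0.0632 by edgeR) and 1 to 2 when 1 library was left out. Over all genes 3384 were called, against 2074 with the lane and 2815 to 3267 without 1 library. The level of Ighv2-9 changed sign to 0.19 without TMM and 0.18 with the lane, and ranged from -0.71 to 0.23 without 1 library. The RNA share called 0 of the 5 in every fit run. That of Iglv1 became 0.012 with the lane and 0.23 with each chain scaled to itself, and without 1 library ranged from -0.66 to 0.17. The same range was -0.45 to 0.28 for Ighv2-9 and -0.80 to 0.0070 for Ighv10-1.

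BCR usage called 2 of the 5, against 1 with clonotypes in place of reads, 0 with DESeq2, 1 with the replicate block (IGHV10-1 adjusted p = 0.0539 by edgeR) and 0 to 2 without 1 library. Of 296 segments 65 were called, against 34 with the block and 20 to 65 without 1 library, 20 being without titled CT-26 2, 35 without titled CT-26 3 and 40 without titled CT-26 4. IGHV2-9 became 0.20 with DESeq2, and IGHV4-2 0.38 with clonotypes and 0.43 with DESeq2. The number of RNA libraries best matched by their own number was 2, against 1 with clonotypes and 4 over V genes with at least 5 counts, a setting chosen after seeing the data. The cause of these changes was not tested. The numbers share only a number, and among the 5 genes the block changed no other call. Over all RNA genes it called 3112. The IgD differences kept their direction and call in every fit without 1 library (adjusted p 0.0297 to 0.0328 by the exact permutation test), and the V totals of each chain kept their direction without 1 library. Without TMM the Iglv and Igkv totals kept theirs, at -1.39 and -0.67 (log2), while that of Ighv was -0.27 with TMM and 0.09 without it. A limit of 100 counts leaves 1 gene, so agreement and matching were not run with it. The level of Ighv4-2 ranged from 0.23 to 1.66 without 1 library. A V gene with a few RNA counts per library allows only large differences to be detected.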
